A study of Mus musculus with 6 samples.

Results

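The endogenous inhibitors of metalloproteinases were followed in mouse lens capsules after cataract surgery. The family comprises the 4 tissue inhibitors of metalloproteinases, Timp1, Timp2, Timp3 and Timp4, and the membrane-anchored inhibitor Reck. These 5 genes were taken by symbol from the 56940 genes listed in each library, and all 5 had a row. RNA came from wildtype C57BL/6 capsules with their attached lens epithelial cells, 5 capsules pooled per library and 3 libraries per time. In this operation the fiber mass is removed and the capsule with its epithelium stays behind. The 5 day capsules came from the eye operated on first, and the 0 h capsules from the second eye of mice whose first eye had been operated on 5 days before, so no group was free of surgery. The labels give no ages, and they do not tell if the same mice entered pools of both times. The main test treated the pools as unpaired, and its p-values set the difference between times against the spread between these pools.

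TIMPs are small secreted proteins that bind the active site of matrix metalloproteinases (MMPs), the enzymes that cut collagens, laminins and other matrix proteins. They differ in their partners: TIMP1 binds MMP9 well and inhibits the membrane enzyme MMP14 poorly, TIMP2 pairs with MMP14 and MMP2, and TIMP3 stays in the matrix and also inhibits ADAM17 and several ADAMTS proteases. RECK, held in the membrane by a lipid anchor, restrains MMP2, MMP9 and MMP14 and is also a co-receptor for Wnt7 ligands. In lens wounds and in secondary cataract, MMPs and TIMPs are known for their part in remodelling of the capsule and the scar matrix.

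RefSeq start regions of the GRCm38.p6 build were found for all 5 genes. Those of Timp1, Timp2 and Timp3 are shown because these genes carried nearly all of the TIMP counts, and Timp1 alone rose in the test below. Each run is the 250 bases before the annotated start, read 5′ to 3′ on the gene's strand, with capitals on matches to any motif searched. The motifs, searched on both strands, were the AP-1 site TGAGTCA and its variant TGAGTAA, STAT TTCNNNGAA, TEAD GGAATG, Sp1 GGGCGG, the ETS core AGGAAG and the TATA box TATAAA. The counts were made on another build, and these coordinates belong to GRCm38.p6 only.
Timp1, chrX:20869916-20870165, plus strand: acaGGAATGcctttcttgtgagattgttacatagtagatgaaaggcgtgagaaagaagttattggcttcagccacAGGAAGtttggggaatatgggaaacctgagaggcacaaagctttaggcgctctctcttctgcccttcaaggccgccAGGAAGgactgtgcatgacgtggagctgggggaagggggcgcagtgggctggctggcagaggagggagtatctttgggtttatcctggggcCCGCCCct
Timp2, chr11:118355412-118355661, minus strand: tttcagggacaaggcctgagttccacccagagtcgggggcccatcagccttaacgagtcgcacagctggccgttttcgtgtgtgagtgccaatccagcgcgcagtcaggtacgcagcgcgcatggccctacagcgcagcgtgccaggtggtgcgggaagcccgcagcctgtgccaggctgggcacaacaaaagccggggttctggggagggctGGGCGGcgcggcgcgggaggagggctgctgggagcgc
Timp3, chr10:86300162-86300411, plus strand: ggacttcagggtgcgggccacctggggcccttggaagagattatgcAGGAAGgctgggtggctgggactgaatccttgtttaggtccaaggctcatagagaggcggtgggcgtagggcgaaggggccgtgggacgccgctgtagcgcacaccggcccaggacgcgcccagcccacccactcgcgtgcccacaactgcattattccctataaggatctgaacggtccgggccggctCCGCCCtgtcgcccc
Timp1, chrX:20870186-20870211, plus strand, 26 bases after the start: ggtggaTGAGTAAtgcgtccAGGAAG

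The last run holds the AP-1 variant TGAGTAA at base 27 after the annotated Timp1 start, with an AGGAAG match at base 41. TGAGTAA occurs in 2.68% of all 32851 listed start regions of 300 bases (250 before and 50 after the start), and AGGAAG in 35.4%. Before the start, Timp1 holds a TEAD match, 2 AGGAAG matches and an Sp1 match. Timp2 holds an Sp1 match alone, and Timp3 an AGGAAG and an Sp1 match. In the 250 bases before the start, GGAATG occurs in 12.6%, AGGAAG in 29.5% and GGGCGG in 32.7% of all regions. TGAGTCA occurs in 4.46%, TTCNNNGAA in 7.02% and TATAAA in 12.4% of them, and none of these lies in the 3 runs. The G and C content was 54.4% for Timp1, 68.0% for Timp2 and 65.6% for Timp3, against a median of 52.4% over all regions. These matches describe the letters and are not evidence of binding.

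The libraries held 6207387 to 9774343 gene counts. Markers of the labelled cell type were all detected: the 10 lens epithelium markers summed to 3426 to 3483 CPM (normalised read counts per 1000000 counts) at 0 h and 1558 to 2158 CPM at 5 days, with 7 lower and 1, Pax6, higher. That upward count of 1 was 0 under 8 of 13 alternatives, among them the replicate block and each left-out library except replicate 3 at 5 days. Lens fiber markers summed to 61926 to 71003 CPM at 0 h and 2776 to 11890 CPM at 5 days, and 9 of 9 tested fell. Birc7 and Dnase2b, with 0 and 1 counts at 5 days, passed the low-count filter through the 0 h libraries and could hardly come out higher. Of 14676 tested genes, 47.6% were called at an adjusted p under 0.05, 25.1% higher and 22.5% lower, and the median log2 fold change was -0.01. Scaling by total library size instead of TMM (edgeR's composition scaling) raised the median gene by 0.13 on the log2 scale, and 62.9% instead of 52.7% of the calls were upward. The 3 libraries per time did not overlap for 58.1% of tested genes. In bulk RNA, fewer cells of a type and less RNA per cell cannot be told apart.

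Comparing 5 days with 0 h, Timp1 rose 35.5-fold, Timp3 fell by 0.50 on the log2 scale, Timp2 and Reck did not pass the test, and Timp4 was practically without counts. Of the 4 members that passed the low-count filter, 1 was called higher and 1 lower, against 25.1% and 22.5% of all tested genes. Members called higher were 2 with total library size, DESeq2 or limma-voom, where Timp2 joined. Members called lower were 2 or 0 under some of the other settings, given with Timp3 and Reck.

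Timp1 (ENSMUSG00000001131, chromosome X) encodes the secreted inhibitor that cytokines and growth factors induce in wounds. It had 11, 14 and 43 counts at 0 h, or 1.48, 1.54 and 5.13 CPM, and 555, 598 and 1168 counts at 5 days, or 88.3, 75.1 and 127.9 CPM. Every 5 day library lay far above every 0 h library, and replicate 3 was the highest at each time. The mean went from 2.71 ± 2.09 to 97.1 ± 27.5 CPM (SD, n = 3), a log2 fold change of 5.15 (SE 0.34), or 35.5-fold (95% interval 21.1 to 59.7). In edgeR's quasi-likelihood test, adjusted over all tested genes after Benjamini and Hochberg, the Timp1 rise had an adjusted p of 2.09e-07, and 321 of the 14676 tested genes had a larger rise. Without replicate 3 at 0 h, the Timp1 log2 fold change was 5.99, and over the other alternatives it was 4.83 to 5.34.

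Markers of other cells moved in the same comparison as Timp1, in which 25.1% of all tested genes were called higher and 22.5% lower. All 14 macrophage and monocyte markers rose, from a summed 20.7 to 44.0 CPM at 0 h to 565.5 to 797.6 CPM at 5 days. Ccr2 alone among them had no counts at 0 h. Itgam, Cd14, Tyrobp, Adgre1, Fcgr1, Cd68, Ptprc and C1qa had 7 to 44 counts over the 0 h libraries. Like Ccr2, they passed the filter through the 5 day libraries and could hardly come out lower. Csf1r, Lyz2, Mrc1, C1qb and C1qc had 49 to 195 counts over the 0 h libraries and also rose. At 0 h, replicate 3, with the highest Timp1 of that time, had the highest sums of macrophage (44.0 CPM), retinal pigment epithelium (104.0 CPM), photoreceptor (855.9 CPM) and pigment cell markers (34.0 CPM). The highest 0 h sums of endothelium (9.11 CPM), pericyte (13.3 CPM) and erythrocyte markers (1.21 CPM) were in replicate 2. At 5 days, replicate 3 again had the highest Timp1. Its sums of endothelium (38.2 CPM), pericyte (79.8 CPM), photoreceptor (113.7 CPM) and pigment cell markers (39.7 CPM) were also the highest. The highest 5 day sums of macrophage (797.6 CPM), neutrophil (8.43 CPM) and retinal pigment epithelium markers (4.14 CPM) were in replicate 1. That of erythrocyte markers (4.14 CPM) was in replicate 2. Neutrophil markers were at 0 for 8 of 8 genes at 0 h and summed to 3.01 to 8.43 CPM at 5 days, where Ly6g, Mpo, Elane and Camp had no counts. Of 5 tested vascular endothelium markers 4 rose (sum 5.25 to 9.11 and 22.4 to 38.2 CPM), with Cldn5 at 0 at 0 h. All 4 (Pecam1, Cdh5, Tek and Cldn5) passed the filter through the 5 day libraries and could hardly come out lower. Vwf, at 5.55 ± 1.94 CPM at 0 h (SD, n = 3), was not called. Of 4 tested pericyte markers 3 rose and 1 fell (11.4 to 13.3 and 61.6 to 79.8 CPM). Rgs5 and Cspg4, which rose, passed through the 5 day libraries, and Abcc9, which fell, through the 0 h libraries. Retinal pigment epithelium markers fell for 4 of 4 tested, from 41.3 to 104.0 CPM down to 2.89 to 4.14 CPM, with Rpe65 at 0 at 5 days. Rpe65, Rgr and Ttr passed the filter through the 0 h libraries and could hardly come out higher. Photoreceptor markers fell for 8 of 8, from 566.5 to 855.9 CPM down to 39.7 to 113.7 CPM. Among them, Rcvrn and Gngt1 passed the filter through the 0 h libraries. Pigment cell markers were called in 0 of 4 (12.7 to 34.0 and 12.4 to 39.7 CPM), and none of the 5 erythrocyte markers passed the filter (0.318 to 4.14 CPM over all libraries). The part of these cells in the Timp1 rise was not tested.

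Timp2 (ENSMUSG00000017466, chromosome 11) encodes the inhibitor that both blocks MMP14 and helps it activate proMMP2. It stood at 472.6, 501.0 and 489.7 CPM at 0 h and at 616.4, 556.1 and 553.8 CPM at 5 days. The 5 day libraries were all higher, by a small margin. The mean was 487.7 ± 14.3 and 575.4 ± 35.5 CPM (SD, n = 3), a log2 fold change of 0.24 (SE 0.10, 95% interval 0.02 to 0.46), and the adjusted p of 0.0682 (edgeR) missed the threshold. The interval of the Timp2 difference runs from 1.01-fold to 1.37-fold. Timp2 passed with total library size (log2 fold change 0.37, adjusted p = 0.00703), DESeq2 (0.25, adjusted p = 0.0405) and limma-voom (0.24, adjusted p = 0.0272), and its adjusted p over all alternatives ran from 0.00703 to 0.249.

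Timp3 (ENSMUSG00000020044, chromosome 10) encodes the matrix-bound inhibitor with the widest range of targets. It stood at 434.0, 417.5 and 427.5 CPM at 0 h and at 262.4, 266.4 and 376.0 CPM at 5 days. The 5 day libraries were all lower, and replicate 3 was much nearer to the 0 h level than the others. The mean fell from 426.3 ± 8.31 to 301.6 ± 64.5 CPM (SD, n = 3), a log2 fold change of -0.50 (SE 0.14, 95% interval -0.80 to -0.20), with an adjusted p of 0.00946 (edgeR). Without replicate 1 at 5 days the Timp3 call was lost, with an adjusted p of 0.0641 at a log2 fold change of -0.41, and no member was then called lower. The Timp3 log2 fold change was -0.37 to -0.70 over all alternatives.

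Reck (ENSMUSG00000028476, chromosome 4) had 45 to 145 counts per library. It stood at 10.6, 13.3 and 17.3 CPM at 0 h and at 7.16, 9.42 and 11.3 CPM at 5 days. The groups overlapped, since replicate 1 at 0 h lay below replicate 3 at 5 days. The mean was 13.7 ± 3.35 and 9.29 ± 2.06 CPM (SD, n = 3), a log2 fold change of -0.55 (SE 0.24, 95% interval -1.08 to -0.02), with an adjusted p of 0.0797 (edgeR). Reck was called lower without replicate 1 at 0 h (-0.71, adjusted p = 0.0430), without replicate 3 at 5 days (-0.73, adjusted p = 0.0299) and with a replicate block (-0.56, adjusted p = 0.0440), and its adjusted p over all alternatives ran from 0.0299 to 0.304.

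Timp4 (ENSMUSG00000030317, chromosome 6), the TIMP best known from heart and brain, had 0 counts in 5 libraries and 1 count in replicate 2 at 5 days. It did not pass the filter and has no fold change. A count of 0 allows up to 3 counts, or 0.307 to 0.483 CPM of the unscaled library total, for counting error alone.

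**Figure D1:**
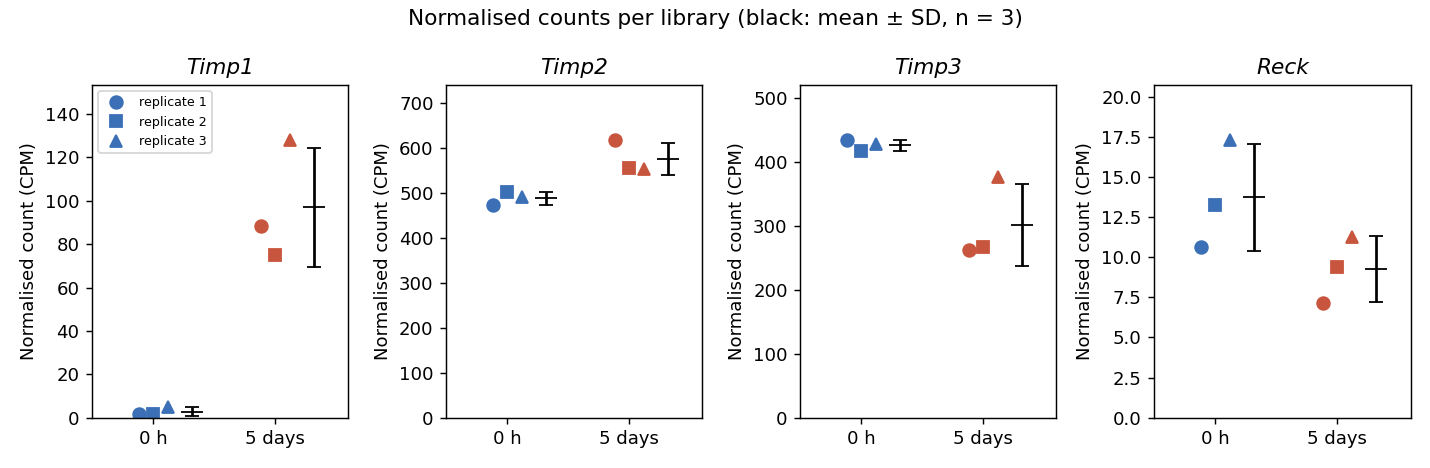
Normalised counts (CPM, linear axis from 0) of Timp1, Timp2, Timp3 and Reck in each library at 0 h (blue) and 5 days (red), with replicates 1, 2 and 3 as circle, square and triangle and mean ± SD in black (n = 3). Timp1 goes from 1.48 to 5.13 CPM up to 75.1 to 127.9 CPM, while the other members stay within the same order of magnitude and the Reck groups overlap.

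Levels of different genes were compared as CPM per kilobase of annotated exon (GENCODE M21, an annotation older than the counts). Exon bases were joined over all transcripts of a gene, so lengths are approximate and can exceed that of a single transcript. A length that is too great lowers the level per kilobase. Of the 8144 Timp3 exon bases, 1733 are shared with exons of Syn3 on the opposite strand. At 0 h, Timp2 led at 125.2 ± 3.66 CPM per kb, Timp3 followed at 52.3 ± 1.02, and Timp1 at 3.06 ± 2.35 and Reck at 2.87 ± 0.70 overlapped (SD, n = 3). At 5 days Timp2 stood at 147.7 ± 9.11, Timp1 at 109.4 ± 30.9, Timp3 at 37.0 ± 7.92 and Reck at 1.94 ± 0.431 CPM per kb (SD, n = 3). Timp1 thus stood second, below Timp2 in replicates 1 and 2 but at 144.0 against 142.1 CPM per kb in replicate 3, so these neighbours overlapped.

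As a share of the summed TIMP level per kilobase, Timp1 made up 0.947, 0.953 and 3.14% at 0 h and 34.3, 32.5 and 43.3% at 5 days. Timp2 went from 69.3 ± 1.32 to 50.7 ± 6.91% and Timp3 from 29.0 ± 1.08 to 12.5 ± 1.39% (SD, n = 3). The sum itself was 180.6 ± 3.94 CPM per kb at 0 h and 294.1 ± 36.3 at 5 days (SD, n = 3). These shares describe the family, rest on the approximate exon lengths and were not tested.

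**Figure D2:**
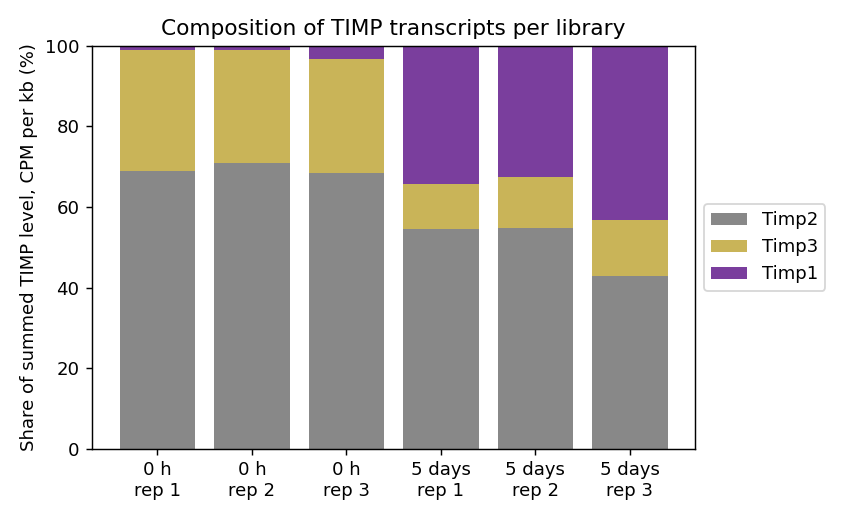
Share (%) of the summed TIMP level in CPM per kb held by Timp2, Timp3 and Timp1 in each of the 6 libraries (Timp4, at most 0.00819%, is not visible). Timp1 is at 3.14% or less in the 0 h libraries and between 32.5 and 43.3% in the 5 day libraries.

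The count ratio of 2 genes within a library does not depend on scaling between libraries. Ratios were computed for 9 pairs with 0.5 added to each count, and tested by exact two-sided permutation of the libraries. All 9 pairs separated the times, with an exact permutation p = 0.1 for each, also after adjustment over the pairs. With 3 libraries against 3 no lower p exists, so none could pass the threshold. For comparison, 58.1% of single tested genes did not overlap between the times, and no such share was computed for pairs of genes. The pairs share genes, and each except Timp2 to Timp3 holds Timp1, Mmp2, Mmp9, Mmp14 or Adam17. These 5 genes were called higher, so the separations are not independent of those calls. The Timp1 to Timp2 log2 ratio went from -7.70 ± 0.990 to -2.60 ± 0.424, the Timp1 to Timp3 ratio from -7.51 ± 0.993 to -1.65 ± 0.152 and the Timp1 to Reck ratio from -2.53 ± 0.699 to 3.36 ± 0.332 (SD, n = 3). The Timp2 to Timp3 log2 ratio was 0.12, 0.26 and 0.20 at 0 h and 1.23, 1.06 and 0.56 at 5 days, so the values of the 2 times did not overlap.

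Inhibitor counts per count of the best known target protease were lower at 5 days for each pair. Mmp14, the membrane metalloproteinase, rose from 13.0 ± 1.62 to 317.1 ± 88.3 CPM (SD, n = 3), a log2 fold change of 4.60 (SE 0.20). Mmp2, a gelatinase that MMP14 activates, rose from 11.1 ± 2.00 to 165.3 ± 36.3 CPM (SD, n = 3), a log2 fold change of 3.90 (SE 0.18). There were 40.6, 39.2 and 33.0 Timp2 counts per Mmp14 count at 0 h and 2.24, 2.16 and 1.32 at 5 days. Timp2 counts per Mmp2 count at 0 h were 36.0, 44.6 and 53.7, and those at 5 days 3.97, 4.11 and 2.69. Timp2 itself was 0.24 higher at 5 days on the log2 scale, opposite in direction to the fall of both ratios. Per kilobase, Mmp14 stood at 2.19 ± 0.272 and 53.2 ± 14.8 CPM and Mmp2 at 3.29 ± 0.594 and 49.0 ± 10.8 CPM (SD, n = 3), below Timp2 at each time.

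Reck and Mmp14 had nearly equal counts at 0 h, with ratios of 0.919, 1.04 and 1.17, and at 5 days the ratios were 0.0263, 0.0368 and 0.0271. This was the largest shift among the 9 pairs on the side of the protease, a log2 difference of -5.13. Timp3 counts per count of Adam17, the sheddase of membrane cytokines and growth factors, at 0 h were 8.38, 8.12 and 9.28, and those at 5 days 3.10, 4.09 and 5.05. Adam17 rose by a log2 fold change of 0.59 (SE 0.12, adjusted p = 0.00133, edgeR), while Timp3 fell by 0.50.

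Mmp9, the gelatinase that TIMP1 binds, had 3 counts over the 0 h libraries and 2382 over those of 5 days. That is an 846.5-fold ratio (95% exact counting interval 289.3 to 4108). This interval covers counting error alone and leaves out the spread between pools. The edgeR log2 fold change was 9.51 (SE 0.40). Timp1 counts per Mmp9 count were 1.16, 0.854 and 0.970 at 5 days, near equal raw counts in each library. The Timp1 exons are shorter, at 888 bases against 3539 for Mmp9. Per kilobase, Timp1 stood at 109.4 ± 30.9 and Mmp9 at 27.9 ± 8.30 CPM at 5 days (SD, n = 3). At 0 h the ratios (23.0, 9.67 and 17.4) rest on those 3 Mmp9 counts, and the log2 difference of -3.99 became -2.89 with 2 added to each count.

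**Figure D3:**
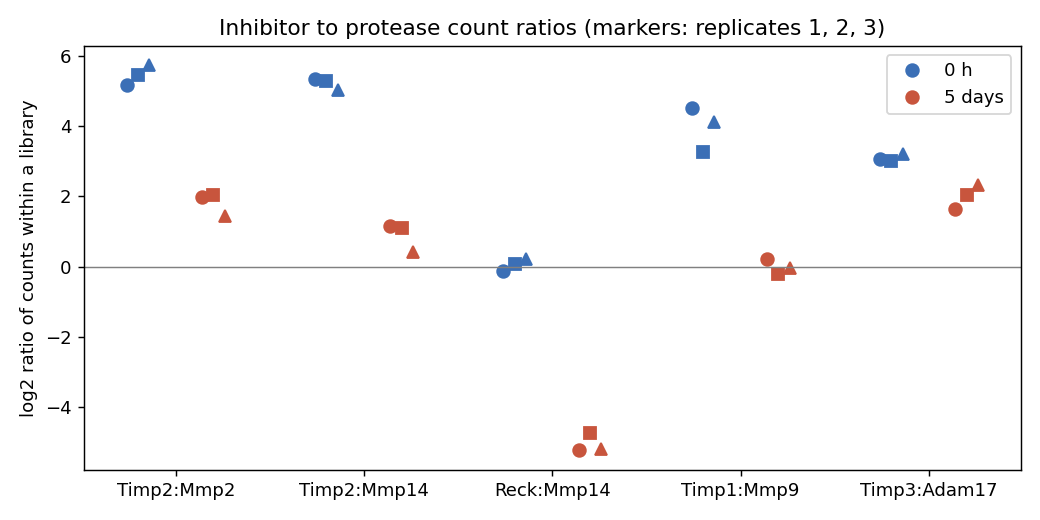
Log2 ratio of inhibitor to protease counts within each library for 5 pairs, at 0 h (blue) and 5 days (red), with circle, square and triangle for replicates 1, 2 and 3 and a grey line at equal counts. In each pair the 5 day libraries lie below the 0 h libraries, furthest for Reck:Mmp14 (-5.13) and least for Timp3:Adam17 (-1.10).

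The target families as a whole were read from fixed lists, beside 25.1% of all tested genes called higher and 22.5% called lower. Among 23 MMP genes, 12 were tested, of which 8 rose and 1 fell, and their median log2 fold change was 3.10, against -0.01 for all tested genes. Of these 12, 4 had 3 or fewer counts at 0 h, so they passed the filter through the 5 day libraries and could hardly come out lower. Mmp15, another membrane MMP, fell by 1.05 (SE 0.25) on the log2 scale. Of the 9 ADAM sheddases 7 were tested and 7 rose, with a median of 2.11. Adam8 and Adam19, with 38 and 16 counts over the 0 h libraries, passed the filter through the 5 day libraries and could hardly come out lower. Adam9 rose from 148.5 ± 11.4 to 214.2 ± 15.7 CPM (SD, n = 3), and Adam12, a sheddase of muscle and wound stroma, had the largest log2 fold change, 4.99 (SE 0.22).

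ADAMTS proteases, several of them TIMP3 targets that cut proteoglycans, went both ways. Of 19 genes 16 were tested, 9 rose and 4 fell, against 25.1% and 22.5% of all tested genes. Their median was 1.13, and 2 of the 16, Adamts7 and Adamts14, had 3 or fewer counts at 0 h. Adamts16, Adamts8 and Adamts12 had 4, 5 and 40 counts over the 0 h libraries, Adamts12 with 0.329 CPM in replicate 2. These genes passed the filter through the 5 day libraries and could hardly come out lower. Adamts15, which fell, passed through the 0 h libraries instead. Adamts18, the most abundant of those called by its mean over the 6 libraries, fell from 456.5 ± 39.9 to 160.9 ± 55.0 CPM (SD, n = 3). The aggrecanase Adamts5 had the largest fall, a log2 fold change of -2.43 (SE 0.11). Adamts14, which trims procollagen, had 1 count at 0 h and 770 at 5 days, an 821.0-fold ratio (95% exact counting interval 146.9 to 32467). This interval too leaves out the spread between pools, and the edgeR log2 fold change was 9.18 (SE 0.56).

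Other inhibitors and proteins with a TIMP-like netrin domain also split, with 3 higher and 2 lower of 5 tested among 9 listed. Of all tested genes, 25.1% were higher and 22.5% lower, and the median of this list was 0.43. Spock1, a testican of the extracellular matrix, rose by 0.43 (SE 0.14, adjusted p = 0.0258, edgeR) with groups that overlapped, and Spock3 of the same family fell by 2.56 (SE 0.31) on the log2 scale. The count of 3 higher was 2 without replicate 1 or 3 at 0 h or replicate 1 at 5 days. Pcolce2, which carries a netrin domain and enhances procollagen processing, rose by 3.10 (SE 0.70) from a low level of 0.254 ± 0.221 CPM (SD, n = 3). With 6 counts over the 0 h libraries, Pcolce2 passed the filter through the 5 day libraries. The far more abundant Pcolce fell from 128.3 ± 14.3 to 89.4 ± 6.60 CPM (SD, n = 3), a log2 fold change of -0.52 (SE 0.11). A2m rose from 14.9 ± 6.93 to 108.7 ± 31.2 CPM (SD, n = 3), a log2 fold change of 2.87 (SE 0.27).

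**Figure D4:**
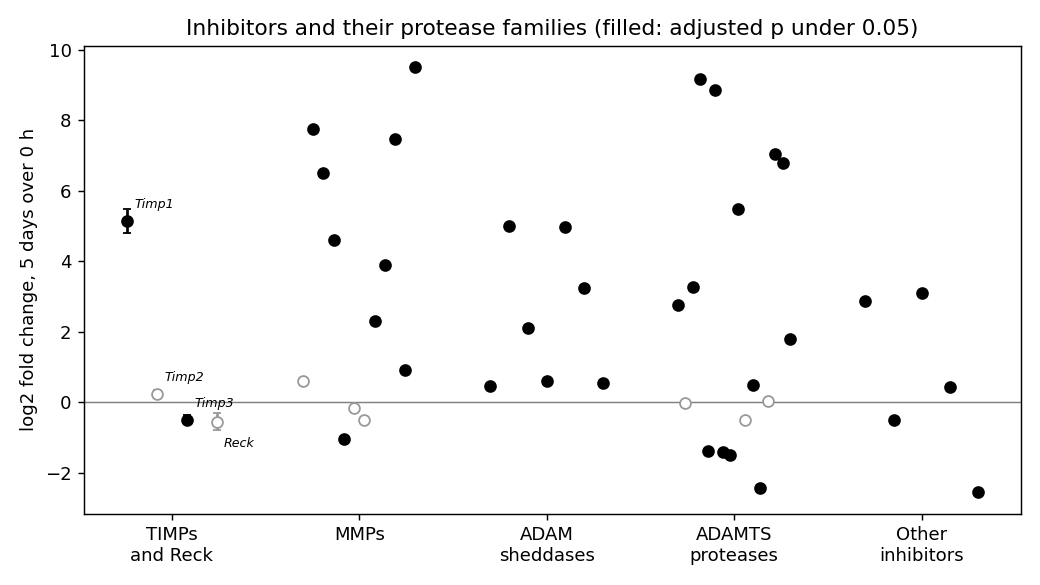
Log2 fold change of 5 days over 0 h for the 4 tested members (error bars, SE) and for each tested gene of 4 lists (no error bars), filled where the adjusted p was under 0.05. Timp1 at 5.15 lies within the range of the MMPs, while Timp2, Timp3 and Reck lie within 0.6 of 0.

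Among partners through which TIMPs act on cells or are cleared, 4 of the 7 rose and 1 fell, at a median of 0.99. The shares over all tested genes were 25.1% higher and 22.5% lower. Lrp1, the endocytic receptor that clears TIMPs with bound proteases, rose from 1523 ± 71.4 to 2753 ± 396.1 CPM (SD, n = 3). Cd74, a receptor chain proposed for TIMP1 and also an antigen presentation gene, rose by 3.83 (SE 0.28). Efemp1, a fibulin that binds TIMP3, fell by 1.09 (SE 0.27) on the log2 scale. In the Wnt7 receptor complex of Reck, 1 of 6 genes was higher and 2 were lower (median -0.18). The ligand Wnt7a fell by 1.63 (SE 0.22) and Wnt7b by 0.33 (SE 0.11), the co-receptor Lrp5 rose by 1.57 (SE 0.13), and Adgra2, the receptor that joins Reck, was not called at 0.34 (SE 0.28). The count of 2 that fell was 1 with total library size, and also 1 when a single library was left out, except without replicate 1 at 5 days.

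Cytokines, receptors and transcription factors linked to the control of Timp1 rose for 13 of 15 tested among 18 listed, and 0 fell. Of all tested genes, 25.1% rose and 22.5% fell. The median of this list, chosen with earlier results of these data known, was 2.66. Runx1, a transcription factor, rose from 2.16 ± 0.315 to 437.9 ± 18.1 CPM (SD, n = 3). Il6 had no counts at 0 h and was at least 67.5-fold higher at 5 days, against 3 counts over the 0 h group, and it passed the filter through the 5 day libraries. The AP-1 subunit Fosl1 rose by 4.59 (SE 0.66), Ets1 by 5.62 (SE 0.21) and the receptor Osmr by 2.20 (SE 0.13). Fosl1 and Ets1, with 8 and 36 counts over the 0 h libraries, also passed the filter through the 5 day libraries. Jund and Il6st were not called, at 0.11 and -0.13. Fosl1, Ets1, Osmr, Jund, Il6st, Adgra2, Pcolce and A2m fell outside the rule for named genes and were picked with their values known. The macrophage markers given with Timp1 rose in the same libraries, and their part here was not tested.

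Timp1, Timp3 and Timp4 lie within the synapsin genes Syn1, Syn3 and Syn2, on the opposite strand. In GENCODE M21 the exons of Timp1 and Syn1 share no base, those of Timp3 and Syn3 share 1733 bases (21.3% of the Timp3 exon bases), and those of Timp4 and Syn2 share 90. No source used here gives the strand setting of the counting, so reads of shared bases cannot be told apart. Syn1 had 26, 29 and 40 counts at 0 h and 77, 98 and 244 at 5 days, a log2 fold change of 2.17 (SE 0.34, adjusted p = 0.000218, edgeR), in the same direction as Timp1 and with replicate 3 highest at each time. Whether reads of Timp1 entered the Syn1 count was not tested. Syn3 held 35 to 53 counts per library against 1649 to 3805 for Timp3 and was not called (-0.27, SE 0.27), and Syn2 fell by 2.41 (SE 0.37). Cep295nl, inside Timp2 on the same strand with no shared exon base, held 38 to 79 counts and was not called (0.54, SE 0.31).

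The genes most like each member were taken by the smallest root mean square difference of centred log2 CPM over the 6 libraries, among 4793 genes at or above a mean log2 CPM of 5. Nearest to Timp1 were Lyz2, the macrophage lysozyme (difference 0.30), Col12a1, a fibril-associated collagen (0.35), and Ptprn (0.48). Nearest to Timp2 were Glis2 (0.02), Usp19 (0.03) and Galnt1 (0.03). Nearest to Timp3 were Aurkaip1 (0.08), Mxi1 (0.10) and Zfp618 (0.10), and nearest to Reck were Serping1, the inhibitor of complement C1 (0.10), Slc36a4 (0.15) and Vdac3 (0.16). The 6 libraries share the 2 times, so this likeness is a description alone.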

How the data were processed

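RNA was measured in 6 libraries, 3 at 0 h and 3 at 5 days, grouped by their titles. The authors deposited raw, unscaled gene counts. The submitters' processing notes name HISAT2, HTSeq, edgeR and build GRCm39, without versions, and no source used here names the annotation release or the strand and overlap settings. The 5 summary entries per library (32.3 to 42.6% of reads) were left out. Symbols came from GENCODE M21 (91.2% of genes matched). Genes passing edgeR's default filter were scaled by TMM, and the times were compared by the quasi-likelihood test of edgeR 4.0.16 (R 4.3.3), with p-values Benjamini-Hochberg adjusted over all 14676 tested genes, threshold 0.05. The script was tested on simulated data. CPM used effective library sizes. Named genes are all members, overlapping genes with a row in the counts, Mmp2, Mmp9, Mmp14 and Adam17, the 3 nearest patterns per member, and from each list of pathway genes the called member of highest CPM, largest rise and largest fall. Genes named for passing the filter through the libraries of a single time are outside this rule. Members and lists were chosen with earlier results of these data known. Alternatives were DESeq2 size factors, total library size, no filter, a minimum of 2 CPM in 3 libraries, limma-voom (limma 3.58.1), DESeq2 1.42.0, a replicate block by title number, each library left out, and 2 in place of 0.5 added to counts in ratios. Figures used Python 3.11.15, pandas 2.3.3 and matplotlib 3.10.9.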

Additional observations from a re-analysis of the deposited data

How the results depend on the processing

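Timp1 was called higher under all 13 alternatives. Timp3 was called lower under 12 of 13, the exception being without replicate 1 at 5 days, and its log2 fold change was -0.70 to -0.41 with 1 library left out. Timp2 was called with total library size (0.37), DESeq2 (0.25) and limma-voom (0.24), where members called higher were 2. Reck was called with the replicate block (-0.56), where members called lower were 2, and its log2 fold change was -0.73 to -0.37 with 1 library left out. Leaving out 1 library gave 0 to 2 members called lower, and 1 to 2 genes of the Reck and Wnt7 list lower, where total library size gave 1. The cause of these changes was not tested. The 9 ratios kept their direction under all alternatives. Deviations of same-numbered libraries correlated at 0.03, -0.08 and 0.03, and those of differently numbered libraries at -0.07 to 0.05. With 3 libraries per time, these values cannot tell if the title numbers mark pairs. For 2 of the 5 day libraries the library name gives another number than the title, so this check and the block rest on the titles. The block gave 6738 calls against 6984. Depth limits Reck (45 to 145 counts), Timp4 and Timp1 at 0 h (11 to 43 counts).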

Other observations

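Within 5 days, the members did not order the libraries alike. Timp1 and Timp3 were both highest in replicate 3 (127.9 and 376.0 CPM), where Timp2 was lowest (553.8 CPM), and Timp2 was highest in replicate 1 (616.4 CPM). The Timp1 to Timp3 log2 ratio therefore varied less among the 5 day libraries (SD 0.152) than the Timp1 to Timp2 ratio (SD 0.424). Replicate 3 at 5 days also had the highest summed MMP level, 853.6 CPM against 572.0 and 554.7 CPM in replicates 1 and 2, and the lowest summed lens fiber markers, 2776 CPM against 7463 and 11890 CPM. With 3 libraries these orders are values without a test.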
